A study of Mus musculus with 3 samples.

Results

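The D-type cyclins, their kinase partners and the CIP/KIP inhibitors of these kinases were followed in dissociated cells of the mouse hypothalamus. The 8 genes were Ccnd1, Ccnd2 and Ccnd3 (cyclins D1, D2 and D3), Cdk4 and Cdk6 (the kinases they activate), and Cdkn1a, Cdkn1b and Cdkn1c (the inhibitors p21, p27 and p57). They were taken by gene symbol, 1 row each, from the 32285 genes of the deposited tables. The set was selected on measured values, chosen with earlier results of these data known, among them the HS to PF ratio of Ccnd3 in microglia-like cells and the QS to PF ratio of Cdkn1a in astrocyte-like cells, so the levels and ratios of all 8 are given as a description.

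The study asked whether heat exposure leaves lasting changes in the cells of the hypothalamus. The mice were 8-week-old males, and the labels name neither the strain nor how many animals were pooled per library. PF mice were the control matched for food intake, HS mice were in the heat-exposed state and QS mice were in recovery after the exposure. Each group was represented by 1 single-cell library made by droplet capture of RNA 3' ends (10x Genomics Chromium) from tissue digested with collagenase II, so there were 3 libraries and no replicates.

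In the textbook account, D cyclins bind CDK4 or CDK6 and the complexes phosphorylate the retinoblastoma protein, which frees E2F factors and lets a cell pass from G1 into S phase. D cyclin levels follow growth signals, and the 3 genes are used to different degrees by different cell types. p21, p27 and p57 bind cyclin and kinase complexes. p21 is a target of p53 and is also made under stress without p53, p27 is kept high in many resting cells, and p57 comes from an imprinted gene known for its role in development and quiescence. Most cells of the adult hypothalamus do not divide, so RNA of these genes is largely read in non-dividing cells.

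The PF matrix had 12836 barcodes, the HS matrix 12510 and the QS matrix 11720, with between 93295920 and 103891747 UMIs per library (unique molecular identifiers, 1 per captured RNA molecule). After filtering, 34270 cells remained, with median depths of 6143, 6298 and 6162 UMIs. Barcodes shared between libraries were few, 37 for PF and HS, 51 for PF and QS and 40 for HS and QS. A cell was put in a class when it held UMIs of at least 3 of 8 marker genes of that class and of at most 50% of that number for any other class. The rule placed 28936 cells, and 7 classes had at least 200 cells in every library: endothelial-like, microglia-like, astrocyte-like, ependymal-like, oligodendrocyte-like, pericyte-like and vascular smooth muscle-like. The ending "-like" is a reminder that RNA markers alone assign the class. Border-associated macrophage-like, T or NK cell-like, tanycyte-like and fibroblast-like cells reached at least 40 cells in each library and are described by level. Neuron-like cells numbered 20, 16 and 36, so the neurons of the hypothalamus were hardly represented and are not described.

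Levels are given as CPM, the usual depth-scaled unit, here a gene's UMIs relative to all UMIs summed over a class in a library, and 3 values in a row stand for PF, HS and QS. A ratio of 2 libraries was called when it was at least 1.5 either way, its 95% interval left out 1 and at least 30 UMIs were counted in the larger of the pair. The intervals cover counting error only. With 1 library per group, a difference between groups cannot be told apart from a difference between animals or preparations, and no p-value is given. HS/PF and QS/PF share the PF library, and QS/HS shares a library with each of them.

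On the mm10 build, Ccnd1 lies at chr7:144929931-144939925 (minus strand), Ccnd2 at chr6:127125162-127152193 (minus), Ccnd3 at chr17:47505051-47599691 (plus) and Cdk4 at chr10:127063534-127067920 (plus). Cdk6 lies at chr5:3341485-3531008 (plus), Cdkn1a at chr17:29090976-29100727 (plus), Cdkn1b at chr6:134920401-134925513 (plus) and Cdkn1c at chr7:143458339-143461050 (minus). Some gene ends overlap a protein-coding gene on the opposite strand, by 1771 bases for Ccnd1 and LTO1, 361 bases for Ccnd3 and Bysl and 641 bases for Cdk4 and Tspan31. The labels do not say whether the counting used strand, so reads from those stretches cannot be assigned with certainty.

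Promoter windows are shown for Ccnd3 and Cdkn1a, which had the most called ratios, and for Cdk4. In microglia-like cells with S, G2 or M phase RNA, Cdkn1a (ratio 6.19) and Cdk4 (2.28) were raised most. Cdk6 was also higher there (1.38), and its window is not printed. The RefSeq promoter table (GRCm38.p6) matched 5 of the 8 genes, with 7 start sites. Each run is the 250 bases before a start site, 5′ to 3′ on the plus strand, and capitals mark every match to the motifs searched on both strands. Ccnd3 start 1 covers chr17:47504801-47505050, upstream of the gene, and Ccnd3 start 2 covers chr17:47593217-47593466, inside the gene and intronic to the transcripts from start 1. Cdkn1a start 1 covers chr17:29090729-29090978 and Cdkn1a start 2 covers chr17:29093519-29093768, which is intronic to the transcripts from the first start. The Cdk4 window covers chr10:127063285-127063534.
Ccnd3 start 1: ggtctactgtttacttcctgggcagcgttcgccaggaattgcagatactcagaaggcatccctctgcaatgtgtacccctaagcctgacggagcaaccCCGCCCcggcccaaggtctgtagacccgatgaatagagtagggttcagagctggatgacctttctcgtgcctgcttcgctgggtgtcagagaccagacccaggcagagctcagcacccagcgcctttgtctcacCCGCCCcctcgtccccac
Ccnd3 start 2: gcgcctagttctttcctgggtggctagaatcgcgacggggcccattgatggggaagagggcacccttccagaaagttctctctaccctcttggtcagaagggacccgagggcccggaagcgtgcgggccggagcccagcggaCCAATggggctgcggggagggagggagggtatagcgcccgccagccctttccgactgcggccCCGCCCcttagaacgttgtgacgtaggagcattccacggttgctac
Cdkn1a start 1: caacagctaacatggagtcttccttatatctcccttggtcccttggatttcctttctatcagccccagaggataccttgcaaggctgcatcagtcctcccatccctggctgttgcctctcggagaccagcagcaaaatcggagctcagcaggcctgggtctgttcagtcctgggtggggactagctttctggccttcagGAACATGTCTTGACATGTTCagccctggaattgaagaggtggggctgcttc
Cdkn1a start 2: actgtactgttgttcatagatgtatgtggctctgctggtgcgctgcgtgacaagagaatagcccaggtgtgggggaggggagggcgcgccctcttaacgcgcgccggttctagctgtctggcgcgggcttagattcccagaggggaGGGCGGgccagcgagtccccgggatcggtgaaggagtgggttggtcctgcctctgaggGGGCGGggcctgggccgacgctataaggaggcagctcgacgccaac
Cdk4: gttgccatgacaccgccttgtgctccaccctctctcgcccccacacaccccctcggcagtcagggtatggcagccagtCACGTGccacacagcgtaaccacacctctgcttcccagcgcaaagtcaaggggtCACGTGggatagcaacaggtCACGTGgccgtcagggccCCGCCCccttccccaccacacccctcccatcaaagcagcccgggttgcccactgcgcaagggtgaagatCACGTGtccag

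The capitals in Cdkn1a start 1 are a match to the p53 response element, a pair of half-sites with no spacer, at bases -51 to -32 from the start with 1 mismatch to the consensus. A match this close was in 25 of 32851 promoter windows of the same length (0.0761%). The Cdk4 window holds 4 copies of the E-box CACGTG, a motif that at least once was in 6.02% of the windows. The other capitals are the Sp1 motif GGGCGG or its complement CCGCCC (in 32.7% of windows) and, in Ccnd3 start 2, CCAAT (33.8%). No match overlapped a match to another motif. None of the 5 windows printed held TATAAA (12.4% of windows), TGACGTCA (1.55%), TGANTCA (6.75%), the E2F motif TTTCCCGC (0.895%) or the glucocorticoid response element, searched by its palindromic consensus (0.00913%). The Cdk6 window, which is not printed, held TATAAA and CACGTG. These matches describe letters and were not tied to binding.

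Across the 8 genes and 7 classes, most levels in HS and QS stayed within 1.5-fold of PF. Of 56 pairs of gene and class, 53 had at least 30 UMIs in the library with more for HS against PF. Of these, 2 were called higher and 0 lower, where the same rule called 1.68% of all gene and class pairs higher and 1.9% lower (3.58% either way). For QS against PF, 1 of 52 was called higher and 6 lower, against 1.72% and 3.59% of all pairs (5.31% either way). For QS against HS, 1 of 53 was called higher and 9 lower, against 2.43% and 3.8% (6.23% either way). The median log2 ratio over the members was 0.043, -0.089 and -0.109 in the 3 comparisons, beside -0.0092, -0.019 and -0.0103 over all pairs. The members were picked with some of these ratios known, so nothing is read from these counts against the background.

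**Figure D1:**
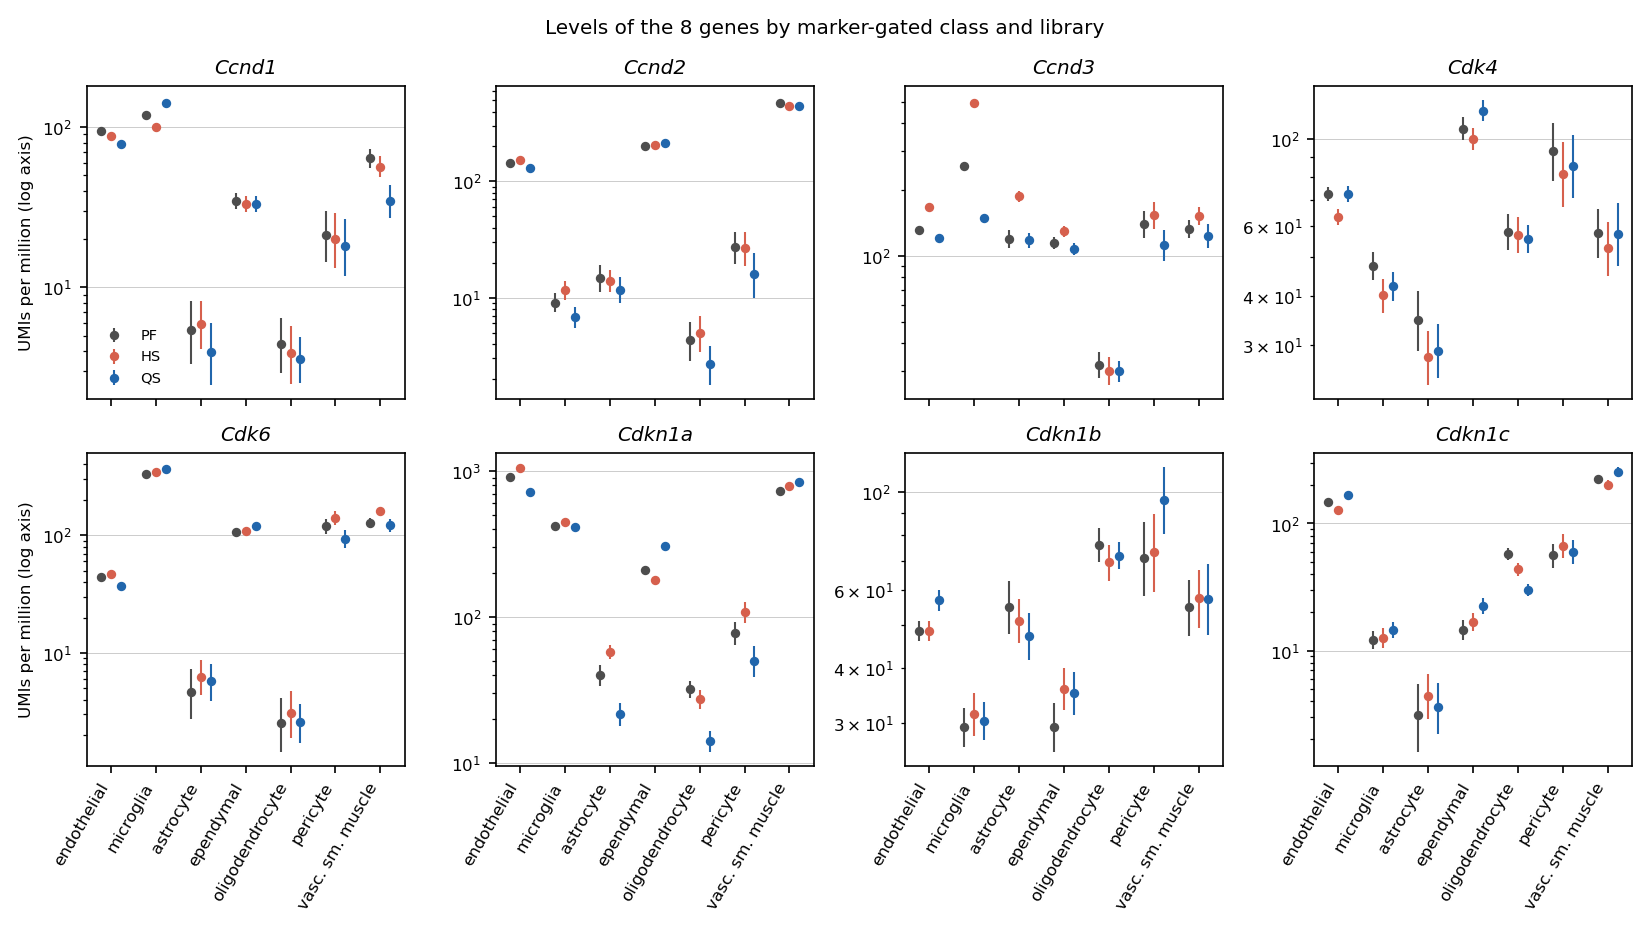
CPM (log axis, a different range in each panel) of each of the 8 genes in the 7 classes, with PF in grey, HS in red and QS in blue and bars for exact Poisson 95% intervals of counting error. Ccnd3 in microglia-like cells stands at 255 in PF, 495 in HS and 148 in QS, while Cdk4 stays between 27.9 and 118 CPM across all classes and libraries.

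Among the 7 classes compared, the single ratio farthest from 1 was that of Ccnd3 for QS/HS in microglia-like cells, while Cdkn1a had more calls over the classes (7 against 5). The Ccnd3 level in microglia-like cells was 255 CPM in PF (3177 UMIs), 495 CPM in HS (4948 UMIs) and 148 CPM in QS (1975 UMIs). HS was the highest and QS the lowest of the 3 libraries, with no overlap of their counting intervals. HS/PF was 1.94 (95% interval 1.86 to 2.03), QS/PF 0.580 (0.548 to 0.614) and QS/HS 0.298 (0.283 to 0.314). All 3 ratios were called.

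The difference was spread over many microglia-like cells. Ccnd3 UMIs were found in 63.4%, 81.8% and 48.5% of the cells, and the median cell held 1, 3 and 0 UMIs. With each cell thinned to 2000 UMIs, which left out 111, 97 and 82 shallower cells, the shares were 33.6%, 55.2% and 23.3%. In oligodendrocyte-like cells, the class with the lowest Ccnd3 level, the thinned shares were 7.05%, 5.96% and 5.72%, at median depths of 6889.5, 7371 and 7902 UMIs against 7656.5, 7619 and 8065 in microglia-like cells. The cell with the most Ccnd3 UMIs gave 0.709% of the class sum or less in each library.

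Markers of other cells in the microglia-like class moved between libraries as well. The summed CPM of 8 endothelial markers was 259.7, 209.9 and 153, that of border-associated macrophage markers 21.5, 14.3 and 7.93, and that of monocyte or dendritic cell markers 18.3, 16.4 and 7.93. The 8 microglial markers summed to 5272, 5375 and 5680 CPM with none at 0. The sums of fibroblast markers (21.9, 31.1 and 5.24 CPM) and astrocyte markers (64.7, 67.9 and 53.2) had the same order of libraries as Ccnd3, and those of neutrophil (203, 232 and 214) and tanycyte markers (19.6, 27.8 and 23.2) were also highest in HS. The part of these cells in the result was not tested. Microglia-like cells were also divided at the median share of UMIs from the cytokine genes Ccl3, Ccl4, Tnf, Il1a and Il1b, a division chosen after seeing the data. The HS/PF ratio of Ccnd3 was 2.05 (1.93 to 2.18) below the median and 1.83 (1.71 to 1.95) above it, and QS/PF was 0.592 and 0.587. Cells above the median made up 43.3%, 45.1% and 60.4% of the class.

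Among the other classes compared, Ccnd3 had the same order of libraries in all but oligodendrocyte-like cells, with smaller spacing than in microglia-like cells. In astrocyte-like cells the level was 119, 186 and 117 CPM, with PF and QS alike within their intervals and HS above both. HS/PF was 1.56 (1.398 to 1.743) and QS/HS 0.632 (0.572 to 0.696), both called, and QS/PF was 0.985 (0.873 to 1.11). Endothelial-like cells held 131, 166 and 121 CPM, with HS/PF at 1.27 (1.22 to 1.33), below the size that counts as called. Over the 7 classes the HS/PF interval lay above 1 in 5 and the QS/HS interval below 1 in 6, with 2 called in each. The share of all genes with such intervals was not taken, so nothing is read from these interval counts. Oligodendrocyte-like cells, at 32.0, 30.1 and 29.8 CPM, showed no such spacing of libraries.

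Border-associated macrophage-like cells, with 159, 127 and 91 cells, held Ccnd3 at 127, 185 and 44.6 CPM. The QS value rested on 29 UMIs in 22 cells. HS/PF was 1.45 (1.16 to 1.82), QS/PF 0.350 (0.226 to 0.525) and QS/HS 0.241 (0.157 to 0.358). Tanycyte-like cells, which line the floor of the third ventricle, held 109, 110.1 and 114 CPM, and T or NK cell-like cells, a lymphocyte class in which cyclin D3 is well known, held 355, 262 and 271 CPM.

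Ccnd1, the D cyclin most tied to growth factor signals, was led by macrophage and endothelial cells among the 11 classes described. It stood at 133, 121 and 99.9 CPM in border-associated macrophage-like cells, at 118, 99.7 and 140.5 in microglia-like cells and at 94.3, 88.2 and 78.7 in endothelial-like cells. The ranges over libraries of the first and second of these overlapped, and the range of endothelial-like cells lay below both. In microglia-like cells Ccnd1 ran against Ccnd3, lowest in HS and highest in QS. HS/PF was 0.844 (0.778 to 0.915), QS/PF 1.19 (1.11 to 1.27) and QS/HS 1.41 (1.30 to 1.52), none of them called. T or NK cell-like and oligodendrocyte-like cells held at most 4.43 CPM.

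In vascular smooth muscle-like cells, the contractile cells of larger vessels, Ccnd1 was 63.8, 56.6 and 34.6 CPM from 215, 174 and 71 UMIs. QS was lower than both other libraries, with QS/PF at 0.541 (0.408 to 0.711) and QS/HS at 0.610 (0.457 to 0.809), both called. With a looser gate the ratios were 0.668 and 0.761 and neither call held. In the other compared classes with enough UMIs, QS/PF of Ccnd1 lay between 0.807 and 1.19, and in border-associated macrophage-like cells it was 0.748 (0.550 to 1.01). The looser gate took it in pericyte-like cells from 0.857 to 0.494, which was called, and HS/PF there from 0.948 to 0.606, also called.

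Ccnd2 marked vascular smooth muscle-like cells, at 477, 444 and 443 CPM. Tanycyte-like cells (213, 212 and 211) and ependymal-like cells (202, 206 and 213), both lining the ventricle, came next with overlapping ranges. T or NK cell-like cells held 163, 149.9 and 189 CPM and endothelial-like cells 145, 152 and 132. The order of classes for Ccnd2 was therefore unlike that of Ccnd1 or Ccnd3. No Ccnd2 ratio was called for HS/PF or QS/PF.

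QS/HS was called lower for Ccnd2 in microglia-like cells, where the level was 9.06, 11.5 and 6.81 CPM and the ratio 0.592 (0.444 to 0.786). It was also called lower in oligodendrocyte-like cells, at 4.27, 4.96 and 2.66 CPM from 27, 32 and 29 UMIs, with a ratio of 0.536 (0.313 to 0.915). Both levels are near the 6.32, 6.94 and 5.28 CPM that free RNA at 5% of a class sum would give, and the oligodendrocyte-like call was lost with a stricter gate. Fibroblast-like cells of QS (53 cells) held 25.5 CPM of Ccnd2 from 7 UMIs, against 100.7 and 114 CPM in PF and HS.

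**Figure D2:**
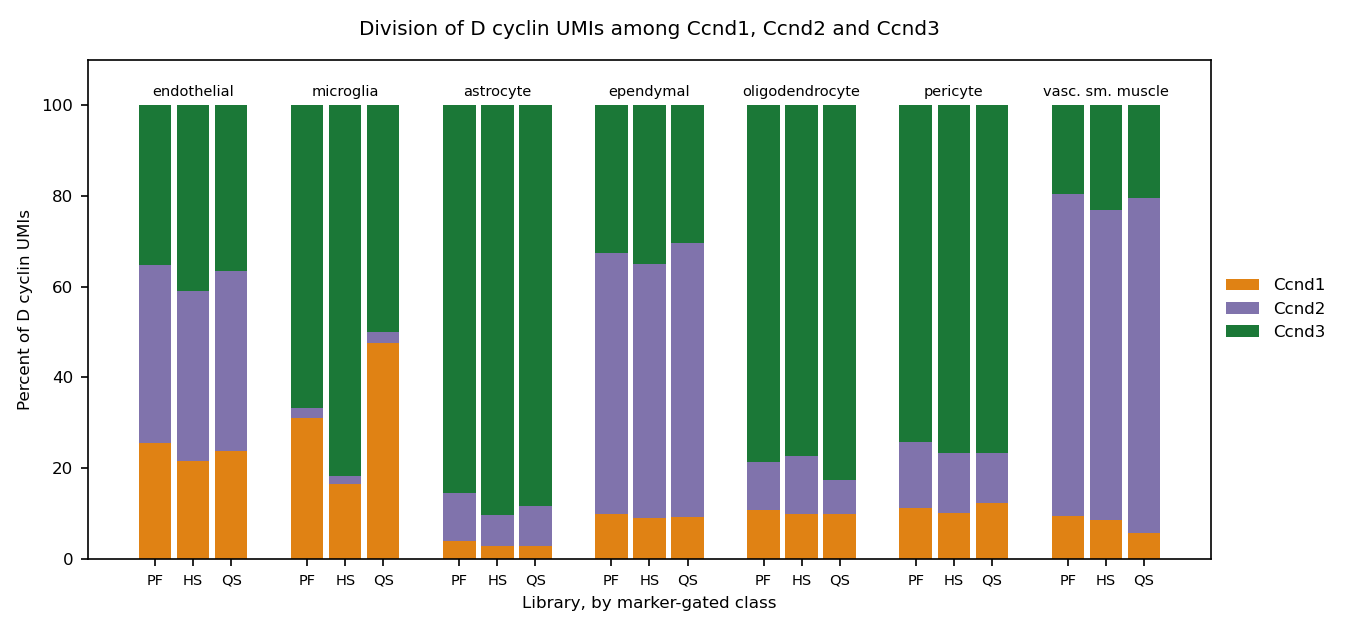
Percent of all D cyclin UMIs that came from Ccnd1 (orange), Ccnd2 (purple) and Ccnd3 (green), stacked to 100, for each class and library. In microglia-like cells the Ccnd3 part is 66.7% (PF), 81.7% (HS) and 50.1% (QS), while the division in the other classes moves less between libraries.

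Each class drew its D cyclin UMIs from a different mix of the 3 genes. UMIs count molecules at the 3' end, so no scaling by length was made, though capture may differ between genes. Ccnd3 gave 85.6%, 90.3% and 88.2% of D cyclin UMIs in astrocyte-like cells and 74.3%, 76.6% and 76.7% in pericyte-like cells. Ccnd2 gave 70.8%, 68.1% and 73.7% in vascular smooth muscle-like cells and 57.5%, 55.9% and 60.2% in ependymal-like cells. Endothelial-like cells used all 3 genes, with shares between 21.7% and 40.9%. Microglia-like cells shifted most between libraries, with Ccnd3 at 66.7%, 81.7% and 50.1% and Ccnd1 at 31.0%, 16.5% and 47.6%. The summed D cyclin level of these cells was 382, 606 and 295 CPM.

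The kinases showed smaller differences. Among the 11 classes described, Cdk6 was highest in microglia-like cells (331, 347 and 368 CPM), followed by border-associated macrophage-like cells (219, 306 and 192). Vascular smooth muscle-like (127, 160.4 and 121), pericyte-like (119, 141 and 92.6) and ependymal-like cells (107, 109 and 120) held it too. Cdk6 was nearly missing from oligodendrocyte-like (2.53, 3.099 and 2.57 CPM) and astrocyte-like cells (4.64, 6.29 and 5.76 CPM). Of the UMIs of Cdk4 and Cdk6 together, Cdk6 gave 87.5%, 89.7% and 89.7% in microglia-like cells and 4.18%, 5.15% and 4.41% in oligodendrocyte-like cells. Ependymal-like cells held the kinases in near-equal numbers, with Cdk6 at 50.3%, 52.3% and 50.5%.

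In pericyte-like cells, which wrap capillaries, Cdk6 was 119, 141 and 92.6 CPM from 181, 190 and 128 UMIs. QS was lower than HS with a ratio of 0.658 (0.522 to 0.827), the 1 call among the kinases, and just inside the size that counts. Vascular smooth muscle-like cells held 127, 160.4 and 121 CPM of Cdk6, with HS/PF at 1.26 (1.10 to 1.44). In border-associated macrophage-like cells HS/PF was 1.398 (1.18 to 1.66) and QS/HS 0.628 (0.506 to 0.775). The HS/PF ratio of Cdk6 was above 1 in all 6 classes in which it could be measured.

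Cdk4 was spread evenly, from 27.9 CPM in astrocyte-like cells of HS to 118 CPM in ependymal-like cells of QS. Neighbouring classes in its order mostly overlapped over the libraries. Its HS/PF ratio was below 1 in all 7 classes, between 0.806 and 0.982, and the interval left out 1 in endothelial-like cells (0.872, 0.820 to 0.928) and microglia-like cells (0.844, 0.741 to 0.959). None was called. QS/HS was above 1 in 6 of 7 classes, with 1.18 (1.08 to 1.29) in ependymal-like cells, and none was called there either.

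Cdkn1a was the most abundant of the 8 genes by CPM, and it was highest in endothelial-like and vascular smooth muscle-like cells. Pericyte-like cells, also vascular, held only 77.8, 108 and 49.9 CPM. Endothelial-like cells held 909, 1048 and 716 CPM and vascular smooth muscle-like cells 729, 785 and 843, with ranges that overlapped. Border-associated macrophage-like cells (478, 497 and 389) and microglia-like cells (419, 447 and 414) came next, also with overlapping ranges. Oligodendrocyte-like and tanycyte-like cells were lowest. In endothelial-like cells HS was highest and QS lowest, with HS/PF at 1.15 (1.13 to 1.17), QS/PF at 0.787 (0.772 to 0.803) and QS/HS at 0.683 (0.670 to 0.696), just outside the size that counts as called.

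QS was called lower than PF in 3 classes with little Cdkn1a. The level was 39.997, 57.5 and 21.6 CPM in astrocyte-like cells, from 155, 338 and 120 UMIs, and QS/PF was 0.540 (0.422 to 0.689). It was 32.0, 27.4 and 14.1 CPM in oligodendrocyte-like cells, where QS/PF was 0.442 (0.356 to 0.547). It was 77.8, 108 and 49.9 CPM in pericyte-like cells, from 118, 146 and 69 UMIs, where QS/PF was 0.642 (0.470 to 0.871). In each of the 3 classes QS was the lowest library, and QS/HS was called lower too, at 0.376 (0.302 to 0.464), 0.515 (0.412 to 0.643) and 0.462 (0.341 to 0.619).

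Free RNA bears on these low levels. At 5% of a class sum, each library's mean profile would give 26.2, 26.4 and 19.5 CPM of Cdkn1a, and this level was lowest in QS. The oligodendrocyte-like value of QS was below it, and the astrocyte-like value was close to it. Endothelial markers summed to 294, 236 and 185 CPM in astrocyte-like cells, to 224, 197 and 124 in oligodendrocyte-like cells and to 352, 331 and 278 in pericyte-like cells, lowest in QS each time. Their part in the result was not tested. With free RNA subtracted at 5%, QS/PF in astrocyte-like cells was 0.155 (0.0754 to 0.293), and the QS count in oligodendrocyte-like cells was 0. The same setting took HS/PF in astrocyte-like cells from 1.44 to 2.23 (1.64 to 3.08) and in oligodendrocyte-like cells from 0.858 to 0.185 (0.0696 to 0.421), both called. Thinned to 2000 UMIs, the share of astrocyte-like cells with Cdkn1a was 8.96%, 10.4% and 3.42% (12.7%, 18.4% and 7.001% before thinning), against 6.68%, 4.27% and 2.95% in oligodendrocyte-like cells. The median depth of astrocyte-like cells was 3458, 3820.5 and 3555.5 UMIs.

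Ependymal-like cells, which carry the cilia that move cerebrospinal fluid, ran the other way. Their Cdkn1a level was 211, 179 and 308 CPM from 1751, 1697 and 2757 UMIs, highest in QS. QS/HS was 1.72 (1.62 to 1.83) and called, and QS/PF was 1.46 (1.38 to 1.55), just short of the size. In the same class, 12 of 13 immediate early genes were called higher in QS than in HS, beside 2.49% of all genes. These immediate early genes are also set off by tissue dissociation. Nr4a1, a nuclear receptor among them, was 149 CPM in HS and 338 CPM in QS, a ratio of 2.26. For QS against PF, 4 of the 13 were called higher, beside 1.72% of all genes. Whether they and Cdkn1a moved for the same reason was not tested.

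Cdkn1b differed little in the 7 classes compared. It was 76.1, 69.4 and 72.0 CPM in oligodendrocyte-like cells, 71.2, 73.3 and 96.2 in pericyte-like cells and 29.4, 31.5 and 30.4 in microglia-like cells, with 0 of 7 ratios called in each comparison. The largest of these was 1.35 (1.04 to 1.76) for QS/PF in pericyte-like cells. In the small fibroblast-like class, QS/PF was 1.75 (1.047 to 2.826) and QS/HS 1.85 (1.11 to 3.003), from 24 UMIs in QS. By median level, T or NK cell-like, tanycyte-like, pericyte-like and oligodendrocyte-like cells were highest, with overlapping ranges between 64.3 and 96.2 CPM. In oligodendrocyte-like cells Cdkn1b gave 45.9%, 49.4% and 62.0% of the UMIs of the 3 inhibitors, while Cdkn1a gave 82.2%, 85.7% and 76.0% in endothelial-like cells.

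Among the 11 classes described, the median Cdkn1c level was highest in vascular smooth muscle-like cells (225, 202 and 254 CPM), and the ranges of fibroblast-like, tanycyte-like and endothelial-like cells overlapped in that order. In HS, fibroblast-like (243 CPM) and tanycyte-like cells (242 CPM) were above them. In oligodendrocyte-like cells it was 57.8, 43.5 and 30.1 CPM from 365, 281 and 328 UMIs, lowest in QS. QS/PF was 0.521 (0.447 to 0.606) and called, and QS/HS was 0.691 (0.587 to 0.813). Pituitary or pars tuberalis-like cells, a class with 80 cells in PF (median depth 1018 UMIs), 40 in HS and 0 in QS, held 1405 and 2192 CPM of Cdkn1c. Markers of that class summed to 37.8, 20.5 and 4.31 CPM in oligodendrocyte-like cells and moved with Cdkn1c there, and their part in the result was not tested. In ependymal-like cells Cdkn1c was 14.6, 16.9 and 22.4 CPM from 121, 160 and 201 UMIs, and QS/PF was 1.54 (1.22 to 1.95), called higher.

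Tanycyte-like cells held Cdkn1c at 114, 242 and 185 CPM from 45, 327 and 174 UMIs in 46, 137 and 90 cells. The HS/PF ratio was 2.12 (1.55 to 2.96) and the QS/PF ratio 1.62 (1.16 to 2.30). The cell with the most UMIs gave 26.7%, 12.8% and 10.3% of the sum, so few cells decided these values. The thinned shares of cells with a UMI were 19.5%, 29.0% and 21.8%. Fibroblast-like cells of QS held 113 CPM of Cdkn1c and 43.7 CPM of Cdkn1a from 31 and 12 UMIs, against 195 and 188 CPM in PF.

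**Figure D3:**
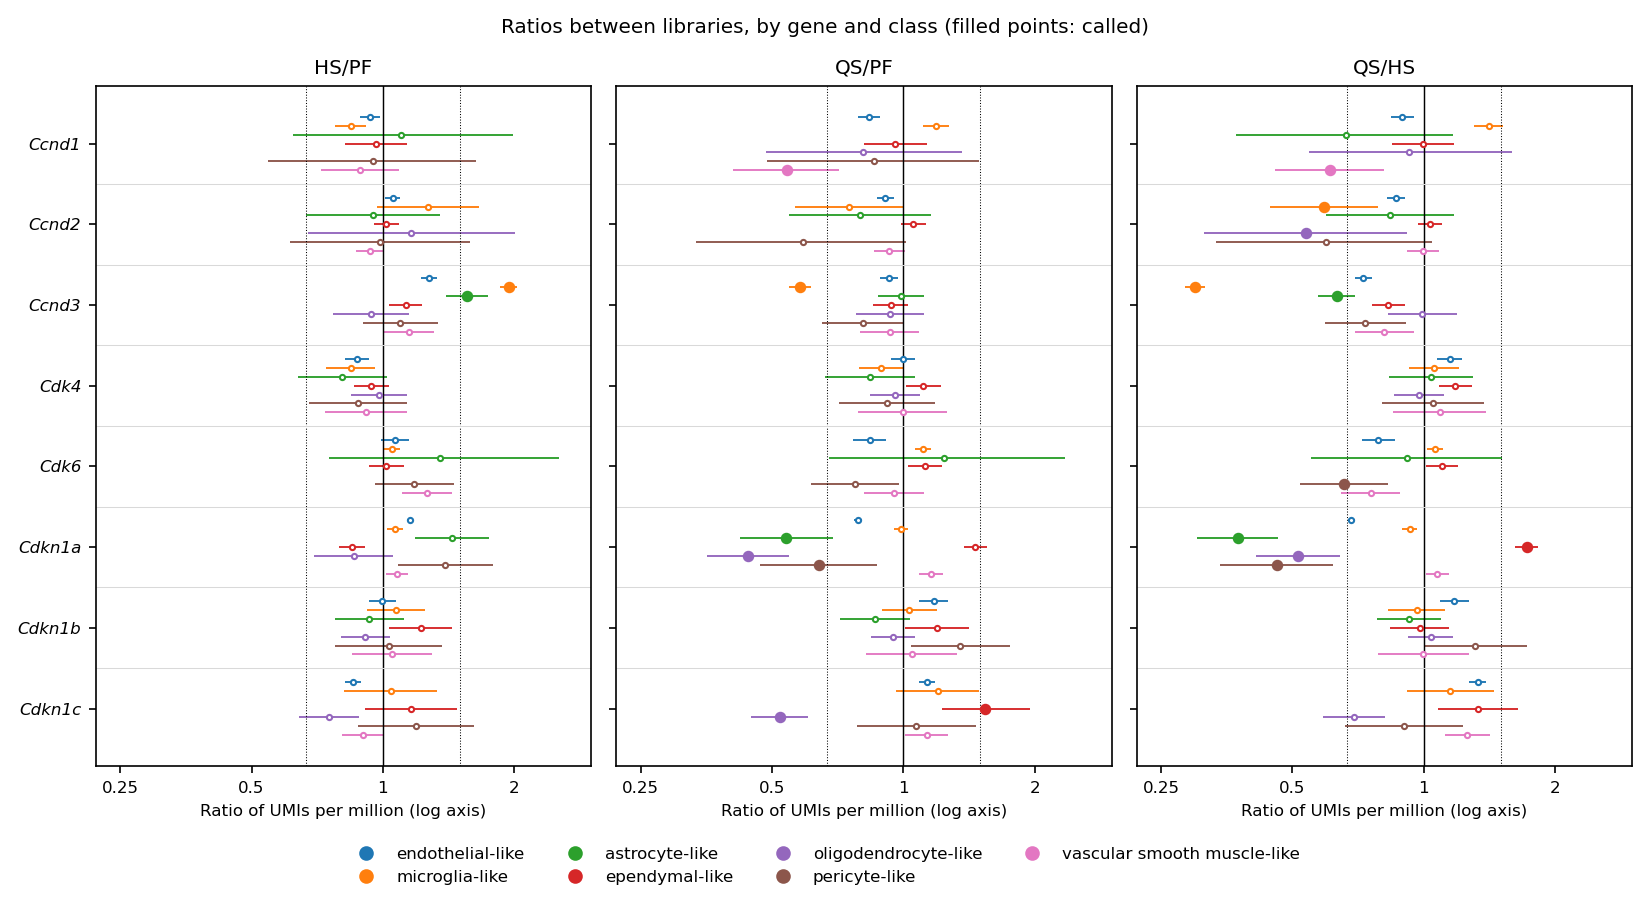
Ratio of CPM between libraries (log axis) for each gene, with 1 point per class and bars for exact 95% intervals of counting error; dotted lines mark the size that counts as called and filled points are called. The HS/PF panel has 2 filled points, both Ccnd3, and the QS/PF and QS/HS panels have 7 and 10, most of them left of 1.

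Near the size that counts, HS/PF was 1.56 for Ccnd3 and 1.44 for Cdkn1a in astrocyte-like cells, on either side of it. For QS/PF, Cdkn1c in ependymal-like cells (1.54) was inside and Cdkn1a in the same class (1.46) outside. For QS/HS, Cdk6 in pericyte-like cells (0.658) was inside, and Cdkn1a in endothelial-like cells (0.683) and Cdkn1c in oligodendrocyte-like cells (0.691) were outside.

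Cells with RNA of S, G2 or M phase genes were rare, and in the microglia-like class some of the 8 genes stood at different levels in them. Cells with at least 3 of 12 such markers were 33 of 1608 microglia-like cells in PF (2.05%, exact binomial 95% interval 1.42 to 2.87), 33 of 1314 in HS (2.51%, 1.73 to 3.51) and 10 of 1652 in QS (0.605%, 0.291 to 1.11). The QS share lay below the intervals of both other libraries. These intervals treat cells as independent and hold no spread between animals, so a group difference was not tested. Their median depths were 9709, 10126 and 10020.5 UMIs, above those of the whole class. Endothelial-like cells had 4 of 3988, 10 of 3748 and 0 of 3166, which allows a share of up to 0.0948% in QS by a floor of 3 cells (exact binomial upper limit 0.116%). Pericyte-like and oligodendrocyte-like cells had 0 in every library.

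In microglia-like cells Cdkn1a was 2356 CPM in the 76 cells with at least 3 of these markers and 381 CPM in the 4041 cells with 0, a ratio of 6.19 (5.89 to 6.498). The difference was present in each library, at 2183, 2468 and 2516 CPM against 372, 361 and 403. The cells with at least 3 markers numbered 33, 33 and 10 and held 722, 904 and 261 UMIs. Among all microglia-like cells, the one with the most Cdkn1a UMIs held 142, 148 and 110, so few cells may weigh heavily. The difference was concentrated in the 49 cells with 6 or more markers, at 2792 CPM, while the 27 cells with 3 to 5 markers held 542 CPM. Cells with 1 or 2 markers held 379 and 429 CPM, close to cells with 0. Border-associated macrophage-like cells showed a ratio of 5.94 (5.19 to 6.78) over 18 cells. These numbered 11, 6 and 1 and held 92, 165 and 54 UMIs, so few cells weighed heavily in this ratio. Its interval, like that of the microglia-like ratio, treats UMIs as independent. The marked cells held 1299, 2814 and 5198 CPM against 443, 332 and 316 in cells with 0 markers, with the QS value from 1 cell. T or NK cell-like cells showed a ratio of 2.12 (1.53 to 2.89), also over 18 cells. The T or NK cell-like ratio rested on HS (379.7 against 95.6 CPM, 46 of 61 UMIs), and in QS the marked cells were lower (131 against 162 CPM). In endothelial-like cells, where Cdkn1a is high throughout, the 12 cells with 3 to 5 markers held 905 CPM, the 2 cells with 6 or more held 459.6 CPM and cells with 0 held 899.

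Cdk4 was 96.2 CPM against 42.2 in the same microglia-like cells, a ratio of 2.28 (1.79 to 2.87), and 96.7, 95.6 and 96.4 CPM in the 3 libraries. Cdk6 was 1.38 times as high (1.24 to 1.53). Over the pooled libraries Ccnd1 (0.627, 0.479 to 0.807) and Ccnd3 (0.656, 0.554 to 0.771) were lower, but not in every library. Ccnd1 in the marked cells was 69.5, 98.3 and 19.3 CPM from 23, 36 and 2 UMIs against 120.5, 100.1 and 138 in cells with 0 markers, so HS showed little difference. Ccnd3 in the marked cells was 109, 254 and 193 CPM against 258, 505 and 147 in cells with 0 markers, so QS ran the other way, and the HS to PF difference was also present in the cells with 0. Leaving out all cells with at least 3 of the markers changed none of the 19 calls. The calls in oligodendrocyte-like and pericyte-like cells could not change, because these classes held no such cells.

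**Figure D4:**
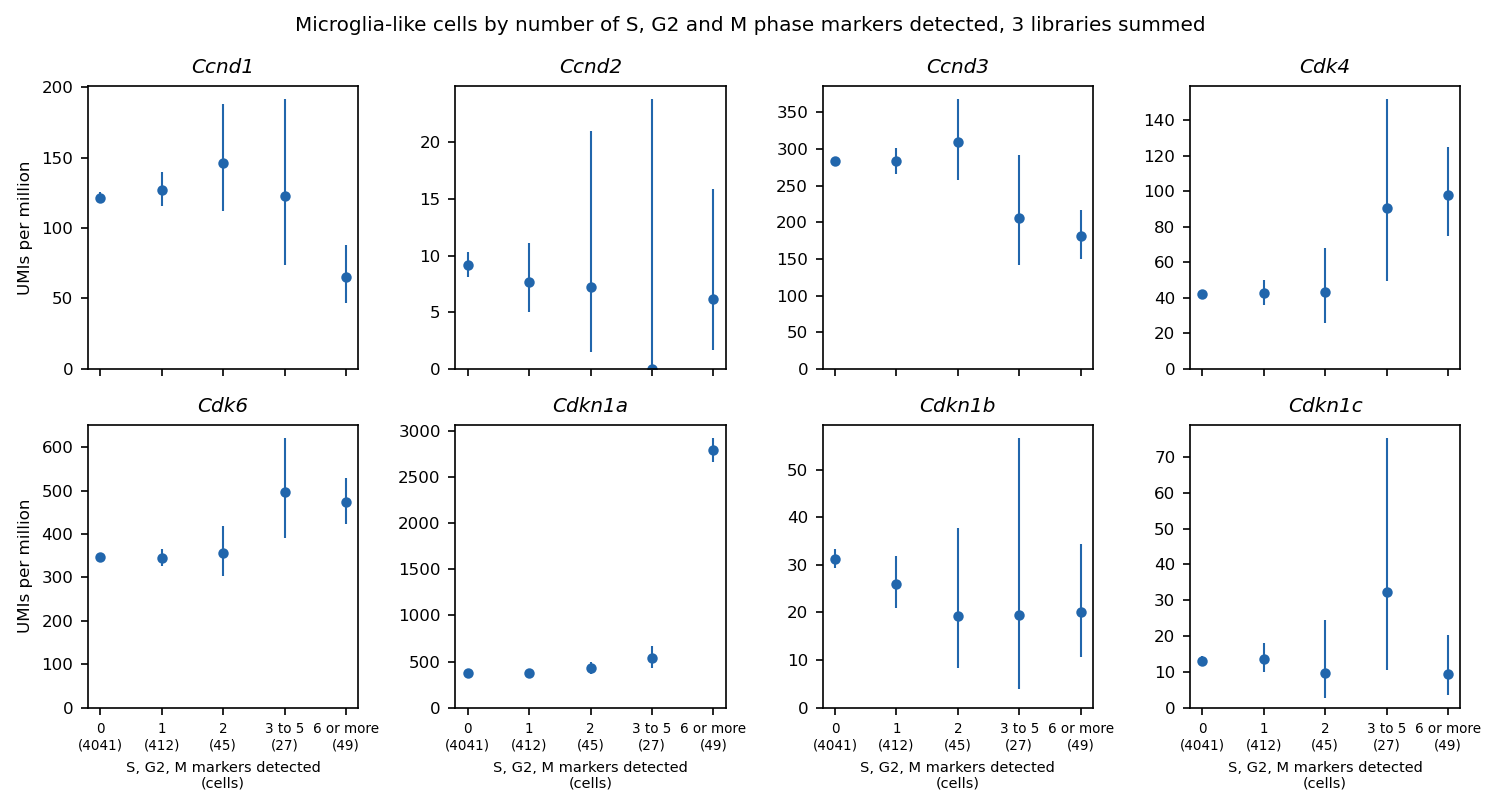
CPM of each gene in microglia-like cells of the 3 libraries summed, by number of 12 S, G2 and M phase markers detected (cell numbers in brackets), with exact Poisson 95% intervals of counting error. Cdkn1a stands between 379 and 429 CPM with 0 to 2 markers, at 542 with 3 to 5 and at 2792 with 6 or more.

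Other genes of the pathway were read from 8 lists, counted as pairs of gene and class like the members. As a background, the rule called 1.68% of all pairs higher and 1.9% lower for HS/PF. It called 1.72% and 3.59% for QS/PF, and 2.43% and 3.8% for QS/HS. The lists were chosen with earlier results known, so no list was tested against these shares. Among other G1 cyclins, kinases and INK4 inhibitors, 1 of 55 pairs was higher and 1 lower for HS/PF, 0 and 1 of 55 for QS/PF, and 2 and 2 of 56 for QS/HS. The inhibitor gene Cdkn2c was lower in QS in microglia-like cells, at 11.1, 13.4 and 5.91 CPM (QS/PF 0.534, 0.400 to 0.710). Among pocket proteins, E2F and DP factors, 0 of 85 were higher and 2 lower for HS/PF, 1 and 1 of 87 for QS/PF, and 1 and 1 of 86 for QS/HS. E2f1, an activator of S phase genes, was 9.46, 6.10 and 4.94 CPM in microglia-like cells. Of the genes for turnover of D cyclins and CIP/KIP inhibitors, 1 of 90 was higher and 3 lower for HS/PF, 0 and 4 of 90 for QS/PF, and 1 and 3 of 87 for QS/HS. Dtl, a receptor of the ligase that degrades p21 in S phase, was 5.29, 2.30 and 2.02 CPM in microglia-like cells.

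S, G2 and M phase genes were called mainly in microglia-like cells, the class in which the most of them could be measured. There 7 of 22 measured genes were higher and 1 lower for HS/PF, 0 higher and 17 of 21 lower for QS/PF, and 0 higher and 15 of 22 lower for QS/HS. The shares of all genes called higher and lower in this class were 1.61% and 1.65%, 1.45% and 4.6%, and 1.62% and 4.35%. Cenpf, a kinetochore gene, was 11.4, 25.1 and 3.22 CPM and Ube2c, a ubiquitin-conjugating enzyme of mitosis, 11.6, 27.6 and 3.66 CPM. Several genes of this list, Cenpf and Ube2c included, are also among the 12 markers used to count cells above. The list and that cell count are therefore not independent. Over all classes the list had 8 higher and 1 lower of 64 pairs for HS/PF, 0 and 18 of 62 for QS/PF and 0 and 18 of 66 for QS/HS, with median log2 ratios of -0.00083, -0.174 and -0.150.

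Targets of p53 other than Cdkn1a had 4 higher and 1 lower of 90 pairs for HS/PF, 2 and 6 of 91 for QS/PF and 6 and 8 of 89 for QS/HS, with medians of 0.0148, -0.052 and -0.083. In endothelial-like cells, where Cdkn1a was highest in HS, 1 of 17 of them was higher and 1 lower for HS/PF. Of all genes in that class, 2.18% were higher and 1.58% lower. The median over the 17 targets was 0.024. The target called higher was Fas, a death receptor, at 109.5, 174 and 84.2 CPM. FoxO factors and targets other than Cdkn1b had 2 higher and 1 lower of 80 for HS/PF, 1 and 2 of 80 for QS/PF, and 1 and 4 of 81 for QS/HS. In astrocyte-like cells the factor genes Foxo1 (117, 195 and 111 CPM) and Foxo3 (HS/PF 1.54) were higher in HS, beside Ccnd3 in the same class.

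Glucocorticoid-responsive genes differed more widely than the members. For HS/PF 18 of 85 pairs were higher and 0 lower, for QS/PF 2 higher and 16 of 83 lower, and for QS/HS 1 higher and 32 of 85 lower, with medians of 0.169, -0.107 and -0.372. In astrocyte-like cells, where Ccnd3 and Cdkn1a were highest in HS, 5 of 13 were higher for HS/PF and 10 of 13 lower for QS/HS. Of all genes in that class, 1.58% were higher for HS/PF and 2.87% lower for QS/HS. In oligodendrocyte-like cells, where Cdkn1a and Cdkn1c were lowest in QS, Sgk1, a kinase gene of this list, was 226, 743 and 75.7 CPM. Immediate early genes had 0 higher and 2 lower of 91 for HS/PF, 4 and 11 of 91 for QS/PF and 12 and 4 of 91 for QS/HS. In oligodendrocyte-like cells 8 of 13 of them were lower for QS/PF, among them Fos at 689 CPM in PF and 338 CPM in QS. Cdkn1a was also lower in that class, as were 3.95% of all genes. The part of these lists in the result was not tested.

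The genes whose levels ran most like each member were ranked by Pearson correlation of log2(CPM + 1) over 33 class and library values, from 11346 genes considered. The 33 values share 3 libraries and 11 classes, so the coefficients describe class patterns. Ccnd2 ran most like Vim (0.94), the intermediate filament vimentin, Fas (0.91) and Plp2 (0.86). Cdk4 was closest to Arf5 (0.90), Sumo2 and Anxa2, Cdkn1c to Rhoc (0.89), Spr and Smim14, and Cdkn1b to Chp1 (0.86), Brcc3 and Atg4d. Ccnd1 was closest to Hbegf (0.85), Pacsin2 and Phf11d, and Cdkn1a to Azin1 (0.85), Ets2 and Eif4ebp1. Ccnd3 was closest to Helz (0.83), Chic2 and Aff1, and Cdk6 to Kdm6b (0.83), Btg2 and Capzb. Between members, the coefficient was highest for Cdk6 and Cdkn1a (0.77), both high in microglia-like cells, and lowest for Ccnd1 and Cdkn1b (-0.58).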

How the data were processed

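The values are raw UMI counts per gene and cell barcode, as deposited, 1 filtered matrix per library. Per the file headers they were made with Cell Ranger 7.0.1, while the submitters' processing notes name Cell Ranger 5.0.0, Seurat 3.1.2 and mm10. The labels do not say whether intronic reads were counted.

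From these counts, cells under 500 UMIs, under 200 genes or over 20% mitochondrial UMIs were left out. Scrublet, run in Scanpy 1.11.5 with an expected doublet rate of 0.8% per 1000 barcodes, removed 784, 672 and 727 cells from PF, HS and QS (6.20%, 5.46% and 6.32%). Each cell was given 1 of 18 classes by the marker rule, and 15.6% of kept cells had none. UMIs were summed per class and library and divided by the class total. Intervals are exact Poisson for a level and exact conditional binomial for a ratio (SciPy 1.17.1, Python 3.11.15). They treat UMIs as independent and hold no spread between animals. The ratio and call steps were tested on simulated data first.

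The 8 genes and the 8 lists (122 genes) were chosen with earlier results of these data known. From each list, up to 4 called genes with the largest ratios per comparison could be named, and the genes most like each member came from those with at least 20 CPM in at least 1 class of each library. The alternatives were other doublet, depth and gate settings, other scalings, equal weight per cell, dividing cells left out, free RNA subtracted at 5%, another size and no UMI minimum. The stricter gate's limit on other classes was set after cell numbers were seen.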

Additional observations from a re-analysis of the deposited data

Results flagged for a closer look

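Cdkn1c differed in opposite directions between classes. QS/PF was 1.54 in ependymal-like cells and 0.521 in oligodendrocyte-like cells. Cdkn1a did so for QS/HS, at 1.72 in ependymal-like cells against 0.376 in astrocyte-like, 0.515 in oligodendrocyte-like and 0.462 in pericyte-like cells. With 1 library per group, the difference between classes was not tested.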

How the results depend on the processing

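All 19 calls among the members were kept without doublet removal, with at least 1000 UMIs per cell, under both other scalings and with dividing cells left out. The last of these settings could not change calls in oligodendrocyte-like and pericyte-like cells, which held no such cells. The stricter gate kept 18, equal weight per cell 18, the looser gate 17 and free RNA subtraction 17. No ratio changed direction among the called ones. For HS against PF, the 2 called higher became 5 with free RNA subtracted and 6 with the smaller size tried, and the 0 called lower became 1 with the looser gate, 1 with free RNA subtracted and 1 with a smaller size. For QS against PF, the 1 called higher became 2 with the stricter gate, 3 with free RNA subtracted and 3 with a smaller size. For QS against HS, the 1 called higher became 2 with free RNA subtracted and 6 with a smaller size, and the 9 called lower became 15 with a smaller size. The smaller size admits more ratios by construction, and for the other settings the cause was not tested. Calls lost were Ccnd2 in oligodendrocyte-like cells for QS/HS (0.562 with the stricter gate, 0.639 with equal weight, no counts left with free RNA subtracted), Ccnd1 in vascular smooth muscle-like cells with the looser gate, and Cdkn1a in oligodendrocyte-like cells for QS/HS with free RNA subtracted (0 counts left in QS). Free RNA subtraction also took Cdkn1a in astrocyte-like cells to 2.23 for HS/PF and 0.0694 for QS/HS, Cdkn1a in oligodendrocyte-like cells to 0.185 for HS/PF and Ccnd2 in microglia-like cells to 0.325 for QS/HS. No paired analysis was possible because each group has 1 library, and for the same reason no replicate could be left out. Levels of a few CPM, as for Ccnd2 in oligodendrocyte-like cells, are limited by depth.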

Other observations

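Oligodendrocyte precursor-like cells, of which there were 7, 18 and 6, held Ccnd1 at 284, 399 and 548 CPM from 6, 40 and 22 UMIs. Monocyte or dendritic cell-like cells (11, 18 and 16) held Cdkn1a at 1235, 356 and 451 CPM from 128, 71 and 80 UMIs. Neutrophil-like cells (7, 32 and 15) held Ccnd3 at 269, 603 and 338 CPM from 6, 84 and 17 UMIs. These classes are too small for a comparison between libraries.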
